A study of Saccharomyces cerevisiae with 88 samples.

Results

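Cryptic unstable transcripts (CUTs) that lie antisense to protein-coding genes were followed through glucose deprivation and through removal of Nab3 from the nucleus of Saccharomyces cerevisiae. They were chosen from the annotation alone: a CUT counted where at least 50% of its length lay over a protein-coding feature on the opposite strand and under 50% over any on its own strand. This gave 1293 of the 2421 annotated CUTs, among 12454 features in all. The other CUTs were 471 on the strand of a gene and 657 that met neither rule. Nab3 and RNA polymerase II (Pol II, tagged on its subunit Rpo21) were measured by kinetic CRAC, in which ultraviolet light cross-links a protein to the RNA it touches within seconds, and total RNA by RNA-Seq.

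The libraries fell into these groups. In BY4741 cells (MATa his3 leu2 met15 ura3) that were filtered out of glucose medium into medium without glucose, there were 2 Nab3 and 2 Pol II time-courses and 1 RNA-Seq time-course. In control time-courses the filtered cells went back into glucose, once for each protein. Pol II was also followed in an anchor-away strain, HHY168 of mating type MATalpha with tor1-1, fpr1::NAT and RPL13A-2xFKBP12::TRP, in which Nab3 was fused to FRB. There rapamycin ties Nab3 to a ribosomal protein and so pulls it out of the nucleus. Cells received rapamycin (1 µg per ml, 1 h before the shift) or its solvent ethanol, in 2 time-courses each. A HHY168 strain with tor1-1, fpr1::NAT and the anchor on a plasma membrane protein instead (PMA1-2xFKBP12::TRP), and no FRB tag on Nab3, was measured at 0 and 14 min with and without rapamycin, 1 library each. Nothing in the sources used here says whether time-courses were grown from separate colonies, so p-values reach no further than these cultures. Those of the rapamycin fits measure the spread between cultures, with 1 mean each. In the time-course fits the culture is a term, and the libraries of a culture count as separate values. There p-values measure the scatter of libraries around a time profile shared by the cultures. Most CRAC tables had been scaled by the authors so that all libraries of a table have the same sum, while the tables of RNA-Seq, of the Megatron lamp and of the strain without the tag had not.

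CUTs are transcribed by Pol II mostly from nucleosome-free regions at gene promoters, often away from the gene whose promoter it is. Nrd1 and Nab3 recognise short motifs in the nascent RNA, and with the helicase Sen1 they end transcription early. The TRAMP complex then adds a short A-tail and the nuclear exosome degrades the RNA, so CUTs are scarce in wild type cells. A CUT that runs back into the gene upstream of its promoter is antisense to that gene.

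The 1293 antisense CUTs formed 989 separate loci over 931 genes. Of them, 1036 lay wholly inside the overlapped gene, 147 reached past its end, 99 past its start and 11 covered the whole gene. Their median length was 257 bases, and at the median they covered 16.5% of the gene. The short end of the annotation held 104 CUTs under 50 bases, 25 of them of 1 base. A divergent gene, transcribed away from the CUT from a start within 500 bases of the CUT's own, was found for 688 of them (53.2%), against 30.1% of the CUTs on the strand of a gene and 42.0% of the other CUTs. The median distance between those starts was 252.5 bases. Just inside the 50% rule stood CUT299, with 50.06% of its length over MED11, and just outside it CUT701, with 48.99% over JEN1. Reads were counted on every feature they touched, and 818 antisense CUTs shared bases with another feature of their own strand, mostly other CUTs (584) and XUTs (302).

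The RNA of an antisense CUT carries the reverse complement of the coding strand. The 5 sequences below belong to CUTs that the results turn on. They are written 5′ to 3′ on the CUT's own strand, as DNA of the R64 genome (RefSeq), with the Nab3 motifs TCTTG, CTTG and TCTT and the Nrd1 motifs GTAA and GTAG in capitals (a match to TCTTG is also a match to the other 2 Nab3 motifs). CUT681 lies over the end of PAM16 (chrX:227752-227920, minus strand). CUT_CNL097CTa3-A lies inside PHO23 (chrXIV:441670-441942, plus strand). The first 300 bases are shown of CUT798 inside TRF5 (chrXIV:68116-68415, minus strand), of CUT075 inside YAP6 (chrIV:974585-974884, plus strand) and of CUT143 inside PNC1 (chrVII:427237-427536, plus strand).
CUT681: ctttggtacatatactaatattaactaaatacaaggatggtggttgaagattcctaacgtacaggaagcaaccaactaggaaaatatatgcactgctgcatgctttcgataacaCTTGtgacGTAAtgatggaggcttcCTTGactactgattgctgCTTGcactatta
CUT_CNL097CTa3-A: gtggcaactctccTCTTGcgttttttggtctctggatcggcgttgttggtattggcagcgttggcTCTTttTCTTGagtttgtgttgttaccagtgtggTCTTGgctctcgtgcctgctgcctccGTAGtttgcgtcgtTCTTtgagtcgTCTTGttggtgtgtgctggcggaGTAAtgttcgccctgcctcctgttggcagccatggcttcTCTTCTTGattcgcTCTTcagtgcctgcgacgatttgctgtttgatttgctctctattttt
CUT798: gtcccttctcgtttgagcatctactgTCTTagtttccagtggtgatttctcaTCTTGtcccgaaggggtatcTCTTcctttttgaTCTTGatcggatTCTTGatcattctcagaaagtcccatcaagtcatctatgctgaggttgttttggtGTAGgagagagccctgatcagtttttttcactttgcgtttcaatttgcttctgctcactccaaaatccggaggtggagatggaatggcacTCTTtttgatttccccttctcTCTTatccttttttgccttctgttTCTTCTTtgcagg
CUT075: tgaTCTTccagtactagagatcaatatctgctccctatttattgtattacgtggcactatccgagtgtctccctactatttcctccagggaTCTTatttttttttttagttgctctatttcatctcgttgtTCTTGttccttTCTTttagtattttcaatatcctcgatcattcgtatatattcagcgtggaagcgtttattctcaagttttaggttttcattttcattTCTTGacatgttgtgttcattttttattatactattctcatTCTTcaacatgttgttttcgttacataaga
CUT143: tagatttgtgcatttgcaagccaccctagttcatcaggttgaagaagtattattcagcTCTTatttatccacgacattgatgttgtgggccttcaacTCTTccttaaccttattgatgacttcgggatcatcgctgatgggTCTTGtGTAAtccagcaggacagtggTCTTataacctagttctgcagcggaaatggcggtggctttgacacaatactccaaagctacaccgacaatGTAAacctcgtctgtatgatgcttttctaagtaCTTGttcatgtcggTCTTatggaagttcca

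Across the loci of the antisense CUTs, TCTTG occurred 3.75 times per kb on the CUT strand and 1.06 times per kb on the opposite strand. The other CUTs had the same kind of bias, with 2.85 and 1.32 per kb, and in CUTs on the strand of a gene it occurred 2.28 and 2.16 times per kb. All protein-coding features, read on their antisense strand, already held 2.54 per kb against 1.02 on the coding strand. TCTTG was present in 71.5% of the 1068 antisense CUTs and 56.6% of the 495 other CUTs of 100 bases or more, and in 46.9% of 37956 windows of 257 bases tiled over the antisense strand of all genes. The CUTs were taken at full length, and a longer stretch holds a motif more often, so these shares are not matched for length. CTTG was found 7.87 times per kb on the CUT strand and 3.27 on the other, TCTT 13.3 and 5.06, GTAA 5.09 and 3.72, and GTAG 3.98 and 2.01. In the sequences shown, CUT_CNL097CTa3-A held 5 copies of TCTTG, the 300 bases of CUT798 held 3, and CUT681 held none but 3 copies of CTTG. These are matches of letters, not sites shown to be bound.

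Nab3 cross-linked to the antisense CUTs far more than to the genes they overlap. In medium with glucose (0 min) they took 18.9% and 18.2% of all Nab3 reads on features in the time-courses without glucose and 20.1% in the control. Pol II gave 3.14%, 1.33% and 1.57% of its reads in the corresponding libraries, and total RNA 0.127%. Reads on overlapping CUTs count more than once in these shares. With 1 CUT counted per locus the Nab3 shares were 14.5%, 14.1% and 15.4%. Set against the reads on the overlapped genes, there were 511 and 470 Nab3 reads on the CUTs for every 100 on the genes, 35.7 and 28.8 for Pol II, and 1.17 for total RNA. The order Nab3, Pol II, total RNA held in every 0 min library. With the slower Megatron lamp the Nab3 shares were 19.9% and 18.8%. The exact 95% interval of the 18.9% share was 18.7% to 19.0%. Such intervals cover counting error only, and they treat a read counted on several CUTs as several reads. Library depth was 25776 to 1309744 reads on features in CRAC time-course and Megatron libraries, and 7557054 to 17997396 in RNA-Seq. As a check of the shift, Pol II rose late on 3 of 3 tested genes known to be induced without glucose and fell on 4 of 4 known to be lowered. The low Pol II share in time-course 2 stood beside 46.4% of reads on rRNA.

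Single antisense CUTs spanned a wide range of Nab3 signal. CUT623, over the 3′ processing factor gene PTI1 and divergent from the phospholipid methyltransferase gene CHO2, was among the highest, with 1229 and 1435 FPKM at 0 min. It had 1180, 1506 and 1662 FPKM (lowest, median and highest of 6 libraries) at 8 to 28 min, and its late difference was 0.12 on the log2 scale (SE 0.19, limma, adjusted p = 0.66). In the Nab3 data most of the other CUTs with the highest FPKM were 1 to 57 bases long, where a few reads make a high FPKM. By Pol II, CUT628 stood out with 1271 and 761 FPKM at 0 min. It shares bases on its own strand with TDH3, which encodes glyceraldehyde-3-phosphate dehydrogenase, and reads of the mRNA and of the CUT cannot be told apart there.

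After glucose was removed, the antisense CUTs took a smaller share of Nab3 reads within minutes. At 1, 2, 4, 8, 14 and 20 min it was 17.4%, 14.1%, 12.3%, 11.9%, 14.7% and 14.6% in time-course 1. In time-course 2, sampled at 1, 4, 8, 16, 28 and 45 min, it was 14.5%, 11.5%, 11.9%, 13.2%, 11.7% and 6.65%. All of these lay below both 0 min values, 18.9% and 18.2%. In the glucose control the share stayed between 19.9% and 22.3%. The mean share at 8 to 28 min was 0.727 and 0.674 of the 0 min value without glucose, and 1.01 in the control. With 1 CUT counted per locus these values were 0.711 and 0.667, and 1.01 in the control. Per 100 Nab3 reads on the overlapped genes, reads on the CUTs numbered 299 and 268 at 8 to 28 min, against 511 and 470 at 0 min.

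**Figure D1:**
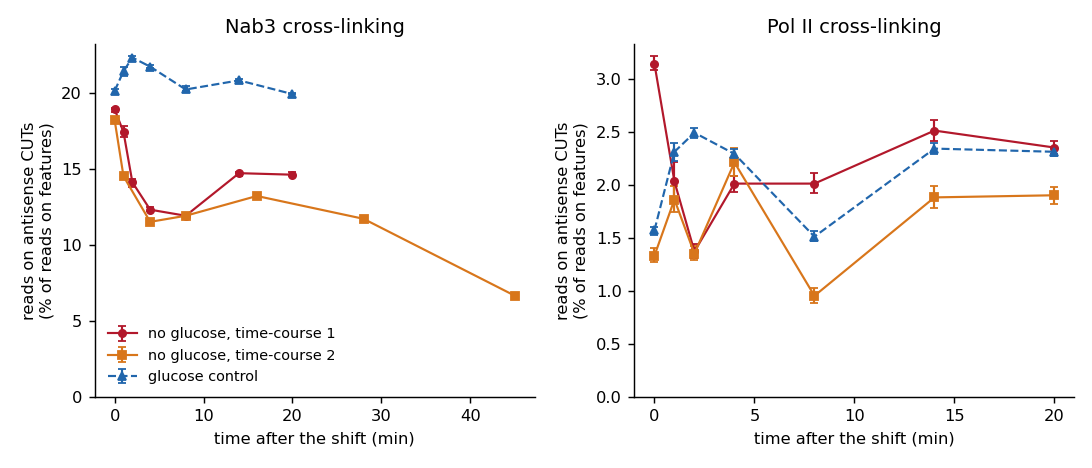
Share of reads on the 1293 antisense CUTs (per cent of reads on all features) against time after the shift (min), for Nab3 (left) and Pol II (right), 1 point a library with its exact 95% interval. Nab3 shares without glucose lie at 6.65% to 17.4% after the shift, below the control at 19.9% to 22.3%, while the Pol II shares of the groups overlap.

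In the fit across all features, 689 of the 1293 antisense CUTs had Nab3 signal above 0 in every library and were tested. At 8 to 28 min (late) 297 of them had fallen and 59 had risen against 0 min, where 21.6% of all 4659 features tested fell and 15.5% rose, 37% in all (limma on log2(FPKM + 1), adjusted p under 0.05). By locus, 230 of 516 tested held a CUT that fell and 45 a CUT that rose. The median late difference was -0.83 for the antisense CUTs and -0.12 for all features. For CUTs on the strand of a gene it was -0.11, and for the other CUTs -0.75. The differences between these classes were not tested. In each time-course alone the median was -0.88 and -0.78, and it was -0.14 in the glucose control. With the change in the control subtracted, 68 of 682 antisense CUTs fell and 13 rose, beside 166 and 99 of all features. Medians by position were -0.77 inside the gene, -1.06 over its end and -0.92 over its start.

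The first calls appeared at 4 min. At 1, 2, 4 and 8 min the median difference of the tested antisense CUTs was -0.29, -0.60, -0.76 and -0.90, and 0, 0, 86 and 220 of the 689 fell while 0, 0, 2 and 18 rose. Of all 4659 features, 220 fell and 173 rose at 4 min, and 604 fell and 358 rose at 8 min. Over 1 to 4 min together (early), 38 fell and 1 rose, beside 2.25% and 2.7% of all features (4.96% in all). None of these early calls remained when the control time-course was subtracted, where no feature of any class was called. None remained when the culture was left out of the model, where 10 of all features rose and 2 fell. Those that fell the most early were CUT_CLR051CTa3-A over the ribosome assembly gene FCF2 (-2.75, SE 0.61, adjusted p = 0.034), CUT603 over the snRNP gene SNU71 (-2.18, SE 0.35, adjusted p = 0.012), CUT822 over RRI2 (-2.11), CUT328 over SLZ1 (-2.06) and CUT813 over the topoisomerase gene TOP2 (-2.06). Some of these falls rest on few reads. CUT_CLR051CTa3-A had 1 to 11 Nab3 reads a library at 1 to 4 min, against 26 and 10 at 0 min. CUT822 had 1 to 23 and CUT813 1 to 25 at those times. CUT_CMR301CTa3-A rose by 1.76 (SE 0.36, adjusted p = 0.030). It lies over ATM1 and is divergent from ADE4, a gene of purine synthesis.

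CUT798 showed the largest late fall. It runs antisense inside TRF5, which encodes a poly(A) polymerase of the TRAMP complex, the machinery that marks CUTs for decay, and is divergent from the kinase gene CLA4. Nab3 on CUT798 was 0.746, 19.9 and 35.3 FPKM (lowest, median and highest of 6 libraries) at 8 to 28 min, against 396 and 363 FPKM at 0 min. It stayed at 373 to 503 FPKM in the 7 control libraries. The late difference was -5.01 (SE 0.59, limma, adjusted p = 0.000115). In total RNA, CLA4 had 6.90 FPKM at 40 min against 24.3 at 0 min, and TRF5 2.03 against 12.9, with 1 library each.

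CUT147, CUT539, CUT685 and CUT659 followed. CUT147 lies over POP6, a subunit gene of RNase P and RNase MRP, and had 1.84, 4.42 and 12.1 FPKM at 8 to 28 min against 87.5 and 91.3 at 0 min (difference -4.03, SE 0.44, adjusted p = 8.305e-05). CUT539, over the Pol II assembly gene RBA50, had 1.78, 17.1 and 43.7 FPKM against 292 and 148 (difference -4.18, SE 0.61). CUT685 over TAX4 fell by 4.10 and CUT659 over the formin gene BNR1 by 3.98. Late reads were few: 1 to 3 a library on CUT147, 1 to 16 on CUT539 and 1 to 23 on CUT798. At 0 min these had 20 and 19, 69 and 32, and 223 and 186 reads. For all 5 CUTs the late values lay below every 0 min and control value.

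A smaller set gained Nab3. CUT_CNL282WTa3-B lies over POP3, another RNase P subunit gene, and is divergent from HCH1, which encodes an Hsp90 co-chaperone. It had 285, 432 and 555 FPKM at 8 to 28 min, against 84.0 and 58.7 at 0 min, and 40.0 to 136 in the control. The difference was 2.54 (SE 0.26, limma, adjusted p = 7.101e-05). CUT_CPL269WTa3-B and CUT877, which overlap each other inside the spindle gene KAR9, rose by 2.55 and 2.41. CUT_CDR259CTa3 rose by 2.41 over YAP6, and CUT_CHR199CTa3 by 2.32 over AIM46.

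CUT075 overlaps CUT_CDR259CTa3 inside YAP6, a bZIP transcription factor gene, and is divergent from HSP78, which encodes a mitochondrial disaggregase. Nab3 on CUT075 was 146, 567 and 1243 FPKM at 8 to 28 min, against 114 and 127 FPKM at 0 min, and 36.1 to 91.6 FPKM in the control. At 4 min it was at 22.4 and 94.2 FPKM, so the gain came after the first minutes. The late difference was 2.02 (SE 0.34, adjusted p = 0.00083). Pol II on HSP78 was 45.4, 111 and 171 FPKM at 8 to 20 min, against 9.61 and 8.56 FPKM at 0 min (difference 3.24, SE 0.46, adjusted p = 0.00015). The mRNA of HSP78 had 413 FPKM at 40 min and 20.4 at 0 min. CUT246, which covers the start of POM33 and is divergent from the Hsp70 gene SSA2, had a late Nab3 difference of 0.68 (SE 0.29) that missed the threshold (adjusted p = 0.078), while Pol II on SSA2 rose by 1.52 (SE 0.25, adjusted p = 0.00039).

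The late change of Nab3 on a CUT followed, across sites, the late change of Pol II on the divergent gene and showed little relation to that on the overlapped gene. Over 218 pairs (165 genes), the Nab3 difference of the CUT and the Pol II difference of its divergent gene had Pearson's r = 0.575 and Spearman's rho = 0.562. Over 217 pairs with the overlapped gene these were 0.036 and 0.067. Nab3 and Pol II came from separate libraries, but pairs of 1 locus share reads or genes, so the pairs are not independent and the coefficients are a description across sites. With 1 value per divergent gene r was 0.595. In each of the 4 combinations of time-courses r was 0.488 to 0.552 for the divergent gene and -0.043 to 0.141 for the overlapped gene. In the 2 glucose controls it was 0.215 and 0.020. Among the 72 CUTs with both genes tested, r was 0.432 for the divergent and -0.149 for the overlapped gene.

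**Figure D2:**
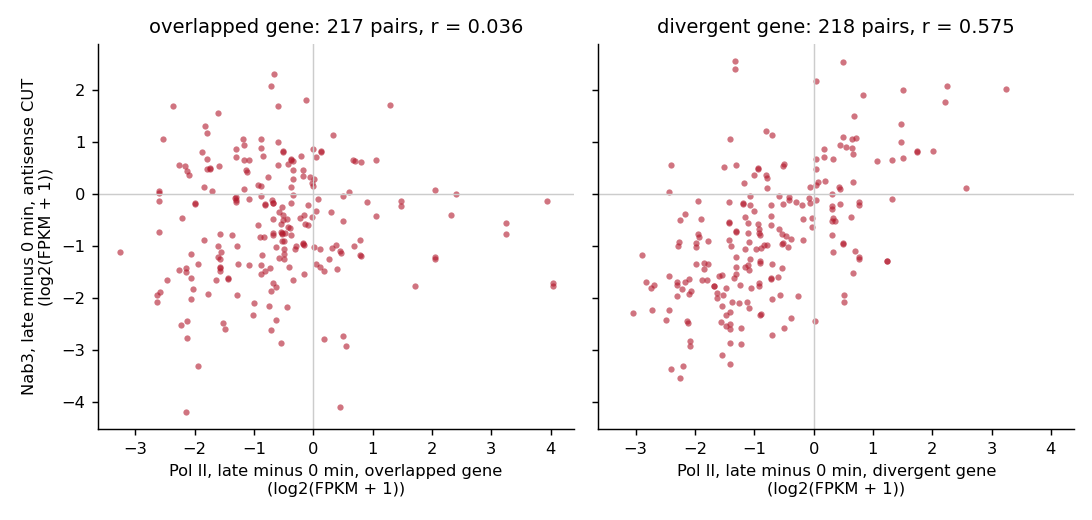
Late minus 0 min difference of Nab3 on the antisense CUT (y axis, log2(FPKM + 1)) against that of Pol II on the overlapped gene (left, 217 pairs) and on the divergent gene (right, 218 pairs), 1 point a pair. The right cloud rises along the diagonal (r = 0.575) and the left one does not (r = 0.036).

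The same could be read from the calls. Of 22 CUTs that gained Nab3 late and had a tested divergent gene, that gene rose in Pol II for 9 and fell for 3 (median 0.70). Of 99 that lost Nab3, the divergent gene rose for 2 and fell for 60 (median -1.404). Over all 218 pairs 15 rose and 82 fell (median -0.91). The overlapped gene had a median of -0.71 under 17 CUTs that gained and -0.89 under 72 that lost Nab3, beside -0.64 over all 217. In total RNA at 40 min the divergent gene had a median log2 ratio to 0 min of 1.27 for 39 CUTs that gained and -1.11 for 188 that lost Nab3, and r was 0.507 over 434 pairs against 0.083 for the overlapped gene (685 pairs). At 1 to 4 min the relation with the divergent gene was weaker (r = 0.179). CUT_CPL269WTa3-B and CUT877 went against it, since Pol II on their divergent gene, the phospholipase C gene PLC1, fell by 1.33 (SE 0.36, adjusted p = 0.0090).

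CUT143 and the longer CUT_CGL037CTa2, which overlaps it, put the 2 neighbours side by side. They lie inside PNC1, which encodes nicotinamidase, and start beside OCH1, which encodes a Golgi mannosyltransferase. Pol II on PNC1 was 78.3, 131 and 185 FPKM at 8 to 20 min against 14.1 and 3.43 at 0 min (difference 4.03, SE 0.46, adjusted p = 4.661e-05). Pol II on OCH1 was 7.13, 10.3 and 20.1 FPKM against 27.2 and 18.5, a difference of -0.92 (SE 0.39) that missed the threshold (adjusted p = 0.068). Nab3 on CUT143 fell to 53.6, 123 and 221 FPKM at 8 to 28 min, against 462 and 305 at 0 min (difference -1.71, SE 0.28, adjusted p = 0.00069). Pol II on CUT143 was 15.1, 42.6 and 78.6 FPKM at 8 to 20 min against 99.4 and 86.5 at 0 min (difference -1.25, SE 0.37, adjusted p = 0.014). In Pol II, CUT143 and CUT_CGL037CTa2 over PNC1 were the 2 pairs of 16 called in opposite directions. They hold nearly the same reads and make 1 locus. The late Pol II values of CUT143 and PNC1 did not overlap with their 0 min values. The strain without the tag went the other way on CUT143, with 168 FPKM at 14 min against 59.3 at 0 min without rapamycin, and 120 against 62.2 with it (38 to 97 reads a library). PNC1 was higher at 14 min there too, at 181 against 18.8 FPKM without and 239 against 17.1 with rapamycin.

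**Figure D3:**
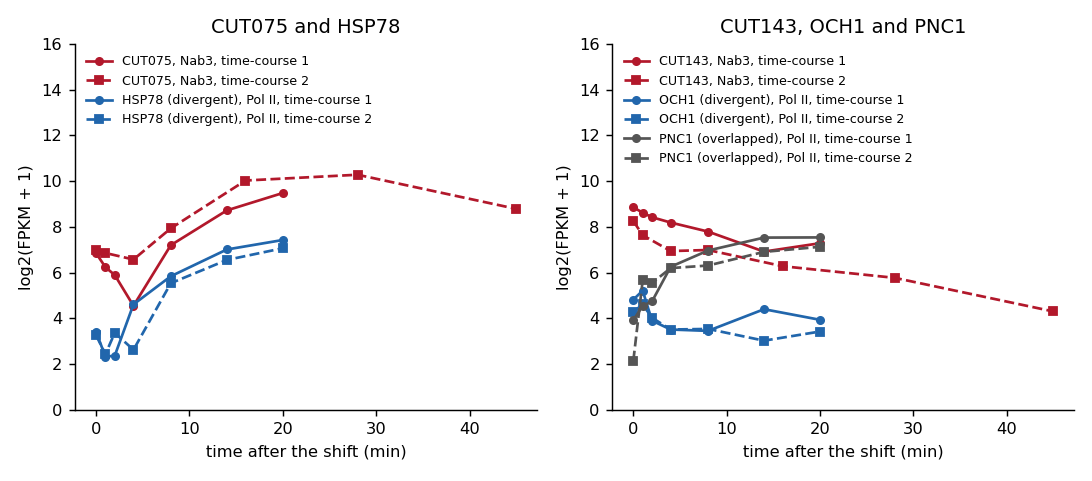
Nab3 on CUT075 and Pol II on its divergent gene HSP78 (left), and Nab3 on CUT143 with Pol II on its divergent gene OCH1 and its overlapped gene PNC1 (right), as log2(FPKM + 1) against time without glucose (min), 1 line a time-course. CUT075 climbs with HSP78 after 4 min, and CUT143 declines while PNC1 climbs.

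Nab3 on the CUT and Nab3 on the overlapped gene were both called late in 31 of 220 pairs, 18 in the same and 13 in opposite directions. Of all features tested, 37% were called late, which is a share of single features and not of pairs. The gene rose in 44 and fell in 26 of all 220 pairs. It rose in 11 and fell in 15 of the 89 pairs with a CUT that fell. In the 27 with a CUT that rose it rose in 3 and fell in 2. Whether 31 exceeds what the single calls would give was not tested. Pairs over the same gene are not independent, and CMC4, CTT1, PNC1 and SSO1 each recur among the opposite ones. The opposite pairs included CUT307 and CUT306 (-2.79 and -1.47) over CMC4, a gene for a mitochondrial intermembrane protein (2.62). CMC4 had only 7 and 1 Nab3 reads at 0 min, and CUT307 had 1 to 5 a library late. CUT_CGR088WTa2 and CUT610 (-2.54 and -1.80) lie over the catalase gene CTT1 (1.86). CUT723 (-2.83) lies over the glycogenin gene GLG1 (1.56), and CUT_CML030WTa3-B (-2.45) over AIM31 (2.01). CUT_CJR147WTa3 rose by 1.70 over the transcription factor gene HMS2, which fell by 2.52.

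Pol II on the antisense CUTs themselves was too sparse for most of them: 47 of 1293 had signal in every library. Late, 8 fell and 4 rose, beside 34.9% and 8.41% (43.4% in all) of the 2890 features tested. Their median was -0.32, against -0.68 for all features, but this order held only under that filter. With a mean of at least 10 FPKM in its place, 34 of 462 antisense CUTs fell and 7 rose, while over all features 700 fell and 214 rose. The medians were -1.17 for the antisense CUTs and -0.71 for all features. With no filter 69 of 1193 antisense CUTs fell and 8 rose, while over all features 1206 fell and 220 rose. The medians were then -1.08 and -0.85. With equal library medians 2 of the 47 fell and 12 rose (median 0.30), while over all features 476 fell and 493 rose (median -0.06), so the direction depended on the scaling for both. Early, 2 fell and 1 rose, beside 0.346% and 1.42% (1.76% in all), and the 2 that fell belong to 1 locus. The strongest falls were CUT_CIR014WTa2 and CUT669, which overlap each other over YIR014W. CUT669 had 5.01, 15.7 and 24.4 FPKM at 8 to 20 min against 71.6 and 50.8 at 0 min (difference -2.09, SE 0.47, limma, adjusted p = 0.0031). CUT884, over FLC1 and divergent from the ribosomal protein gene RPL1A, fell by 1.90, and CUT151 over COX18 by 1.58. CUT239 rose by 2.44 (SE 0.53, adjusted p = 0.0024) over FOX2, a gene of peroxisomal fatty acid oxidation, and CUT790 by 2.02 over the glutathione transferase gene GTO3. These rises rest on few reads. CUT239 had 1 Pol II read in each 0 min library and 2 to 23 a library late. CUT790 had 6 and 3 at 0 min and 5 to 67 late. Nab3 also rose on CUT239 (1.58) and CUT790 (1.87). CUT_CtD(GUC)OD4, which rose by 0.97, shares its bases with a tRNA gene.

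Nab3 minus Pol II, tested as the difference of the 2 late changes, gave no call among the 46 antisense CUTs in that fit (limma, 2 at an unadjusted p under 0.05, and 0 to 4 calls over the other settings tried). Of all 1764 features 22.5% had a higher and 2.04% a lower Nab3 change than Pol II change, 24.5% together. The median difference was 0.01 for the antisense CUTs, 0.82 for all features and 1.11 for protein-coding genes. With time-course 1 left out the median of the antisense CUTs turned to -0.16, and with equal library medians it was -0.86.

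In total RNA, 16056 of 12671254 reads at 0 min fell on the antisense CUTs. Their share was 0.0876% to 0.147% at the 6 later times, against 0.127% at 0 min. At 40 min 186 of the 643 CUTs with reads at both times were at least 2-fold higher and 191 at least 2-fold lower (all features: 21.3% and 28.7%). At 1 min 103 were higher and 257 lower of 615 (all features: 6.89% and 15.2%). There was 1 library per time-point, and with so few reads per CUT these folds carry large counting errors. Whether the RNA-Seq reads were counted by strand is not given in the sources used here and was not tested across the CUTs. Counted without strand, a CUT would also hold the reads of the gene bases it covers. CUT151, which covers 100% of COX18, had 75 reads at 0 min beside 220 on COX18. CUT143, which covers 43.59% of PNC1, had 1 read at 40 min beside 13808 on PNC1. Both counts lie below those that counting without strand would give. A single transcript, CUT122 (named after its values were seen), held 14.3% of the antisense CUT reads at 40 min.

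With Nab3 tethered outside the nucleus, antisense CUTs held a higher share of Pol II reads. After the shift they took 2.71% to 4.23% of Pol II reads in the 14 rapamycin libraries and 0.935% to 1.94% in the 13 ethanol libraries, with no overlap. At 0 min, already 1 h into the treatment, the shares were 3.86% and 3.24% with rapamycin and 2.54% in the 1 ethanol library used. Per culture the mean share at 1 to 4 min was 3.85% and 3.46% with rapamycin and 1.19% and 1.68% with ethanol (ratio 2.54). In the windows 8 to 10, 14 to 18 and 40 to 51 min (late) it was 3.17% and 2.95% against 1.68% and 1.73% (ratio 1.79). Ethanol time-course 1 was sampled there at 8, 18 and 51 min, and rapamycin time-course 1 at 10, 18 and 40 min. The other cultures were sampled at 8, 14 and 40 min. With 1 CUT counted per locus the ratios were 2.38 early and 1.72 late. With 2 cultures against 2 a 2-sided exact permutation test cannot give a p below 0.333, which both comparisons gave. The ratios were 1.29 early and 1.06 late for CUTs on the strand of a gene, and 1.48 and 1.12 for the other CUTs. In the strain without the FRB tag the share was 2.38% with and 2.69% without rapamycin at 0 min, and 2.37% with and 2.54% without it at 14 min. Rapamycin libraries were deeper (median 341667 reads, against 256817 with ethanol), which does not enter a share. Depth does enter detection: 1250 antisense CUTs had a read in some rapamycin library at 1 to 4 min and 1086 in some ethanol library.

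**Figure D4:**
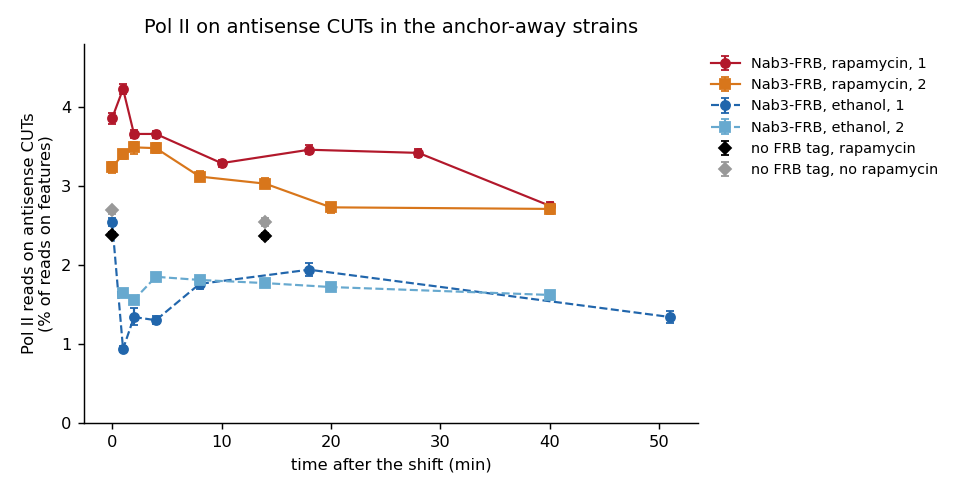
Share of Pol II reads on the 1293 antisense CUTs (per cent) against time after the shift to medium without glucose (min), 1 point a library with its exact 95% interval. The Nab3-FRB strain stands at 2.71% to 4.23% with rapamycin and 0.935% to 2.54% with ethanol, and the strain without the tag at 2.37% to 2.69% with or without rapamycin.

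Of the 160 antisense CUTs with Pol II reads in every library of the fit, 38 were higher with rapamycin at 1 to 4 min and 0 lower (limma, adjusted p under 0.05), beside 4.04% and 0.521% (4.56% in all) of 5376 features. The median difference was 1.17 for these CUTs and 0.12 for all features. In the windows 8 to 10, 14 to 18 and 40 to 51 min, 29 of 180 were higher and 0 lower (all features: 3.72% and 0.187%, 3.9% in all). The median there was 0.84 against 0.42. These calls rest on few cultures and on the scaling. With equal library medians 24 were called early and 1 late. Over all features 112 were then higher and 13 lower early, and 1 higher and 0 lower late. With no filter on low values no feature of any class was called in either window. The medians were then 1.654 for the antisense CUTs and 0.474 for all features early, and 1.189 and 0.568 late. Early, leaving out 1 culture gave 6 calls without ethanol culture 1, 60 without ethanol culture 2, 10 without rapamycin culture 1 and 13 without rapamycin culture 2. Late it gave 2 without rapamycin culture 1, 3 without rapamycin culture 2, 41 without ethanol culture 1 and 101 without ethanol culture 2, of which 98 were higher and 3 lower. Over all features the same 4 late fits, in that order, gave 11, 13, 188 and 1586 higher and 0, 6, 4 and 135 lower. The 4 early fits gave 9, 400, 73 and 36 higher and 0, 52, 1 and 2 lower.

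CUT681 was called in both windows and had the largest late difference. It reaches past the end of PAM16, a gene of the mitochondrial import motor, and its sequence is given above. Pol II on CUT681 after the shift was 271, 387 and 613 FPKM (lowest, median and highest) in 14 rapamycin libraries, against 3.7, 21.4 and 79.4 FPKM in 13 ethanol libraries, which rest on 1520 and 52 reads. The difference was 3.51 early (SE 0.50, limma, adjusted p = 8.061e-05) and 4.43 late (SE 0.46, adjusted p = 5.616e-05). At 0 min it was 568 and 412 FPKM with rapamycin and 77.1 with ethanol. In the strain without the tag, CUT681 had 124 FPKM with rapamycin and 163 without at 0 min, and no read in either library at 14 min. In BY4741 cells it had 0 to 14.3 FPKM in the 6 libraries at 8 to 20 min, against 89.3 and 37.3 at 0 min. In the windows 8 to 10, 14 to 18 and 40 to 51 min the Nab3-FRB cells held 271 to 613 FPKM with rapamycin and 9.58 to 32.8 with ethanol. The value of 32.8 came from the ethanol library at 51 min. PAM16 itself differed by 0.90 early (SE 0.50, adjusted p = 0.38).

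CUT306 over CMC4 was also called in both windows. With rapamycin Pol II stood at 218, 313 and 364 FPKM at 1 to 4 min, against 15, 28.8 and 105 FPKM with ethanol. After the shift as a whole no rapamycin library (lowest 195) lay below an ethanol library (highest 119). The difference was 3.05 early (SE 0.52, adjusted p = 0.00074) and 2.36 late (SE 0.50, adjusted p = 0.015). At 0 min it had 331 and 288 FPKM with rapamycin and 170 with ethanol. In the strain without the tag it had 319 FPKM with and 347 without rapamycin at 0 min, but 18.5 and 12.5 at 14 min. The level of that strain was not scaled to the same sum, so only values within it are compared.

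CUT841 is antisense to CUE5, which encodes a ubiquitin-binding autophagy receptor. Pol II on CUT841 was 67.7, 91.7 and 124 FPKM with rapamycin at 1 to 4 min, against 2.92, 5.79 and 22.7 FPKM with ethanol (difference 3.59, SE 0.50, adjusted p = 6.578e-05). The ethanol values rest on 1 to 13 reads a library. CUE5 was the only overlapped gene called in the opposite direction to its CUT among 114 pairs: it had 0.326 to 6.28 FPKM with rapamycin and 6.58 to 24.6 FPKM with ethanol at those times (difference -2.37, SE 0.41, adjusted p = 0.00096). The ranges of both features did not overlap between the treatments.

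CUT117, inside the Kelch protein gene PMD1, had 96.0, 136 and 189 FPKM with rapamycin at 1 to 4 min and 4.04, 10.5 and 30.1 FPKM with ethanol (difference 3.69, SE 0.50, adjusted p = 6.578e-05). The ethanol values rest on 1 to 5 reads a library. Unlike CUT681, CUT117 was lower at later times with rapamycin too, at 19.3, 27.6 and 44.8 FPKM against 0, 4.45 and 10.9 with ethanol. CUT_CNL097CTa3-A, inside the gene of the Rpd3 complex subunit PHO23, was higher in both windows (3.15 and 1.85). So was CUT654 over the gamma-tubulin complex gene SPC97 (2.99 and 2.83). Ethanol libraries at 1 to 4 min held 1 to 8 reads of CUT_CNL097CTa3-A and 1 to 5 of CUT654. Late calls also included CUT_CHR008CTa3-A over the superoxide dismutase gene SOD2 (2.84), CUT848 over the retromer gene VPS17 (2.73) and CUT_CGR193CTa3-A over PDX1, a pyruvate dehydrogenase subunit gene (2.73). In that order, ethanol libraries of the late windows held 1 to 16, 2 to 9 and 1 to 8 reads of these. CUT246 over POM33 was higher early (2.10, SE 0.52, adjusted p = 0.016). CUT075 was not tested early, since 2 ethanol libraries held no read of it, and had a late difference of -0.10 (SE 0.47, adjusted p = 0.92).

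**Figure D5:**
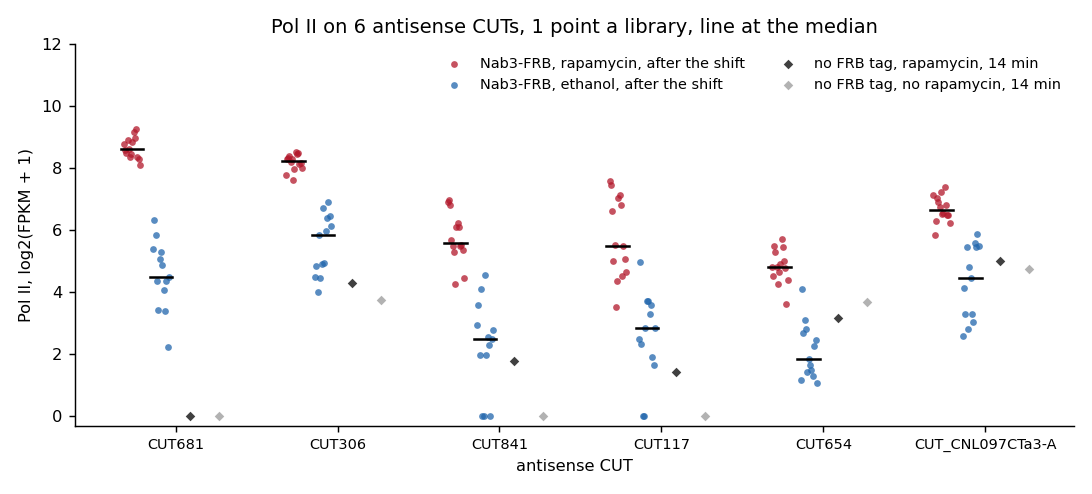
Pol II on 6 antisense CUTs as log2(FPKM + 1), 1 point a library and a line at the median: Nab3-FRB with rapamycin and with ethanol after the shift, then the strain without the tag with and without rapamycin at 14 min, whose table was not scaled to the same sum. For CUT681 and CUT306 every rapamycin library lies above every ethanol library.

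The overlapped genes were read in the same fits. Under the 25 CUTs that were higher with rapamycin early and had a tested gene, 0 genes were higher and 1 was lower, where 4.56% of all features were called (median 0.02, against -0.02 over all 114 pairs). Under 21 late ones 0 genes were called in either direction, where 3.9% of all features were (median 0.50, against 0.41 over 112 pairs). Divergent genes of CUTs called higher early had a median of 0.54 (14 pairs), with 1 gene higher, against -0.01 over 82 pairs.

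The genes of termination and nuclear decay were read beside the CUTs, from a list of 23. In Pol II without glucose 7 of the 11 tested fell late and 0 rose, beside 34.9% and 8.41% of all features, among them SEN1 (-1.69), NRD1 (-1.39) and the TRAMP helicase gene MTR4 (-2.70). With rapamycin 1 of 19 was higher early (all features: 4.04%), NRD1, whose own RNA is known to be a target of Nrd1 and Nab3. It had 87.1, 103 and 119 FPKM with rapamycin and 15.3, 19.3 and 35.7 FPKM with ethanol at 1 to 4 min (difference 2.14, SE 0.50, adjusted p = 0.012). Late, 2 of 8 were higher (all features: 3.72%), NRD1 (1.90) and PCF11 (1.399). NAB3 differed by -0.09 early (SE 0.48, adjusted p = 0.96). Of the antisense CUTs, 2 lie over genes of the list, CUT798 over TRF5 and CUT158 over the exosome gene MTR3.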

How the data were processed

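The deposited tables hold FPKM, which the authors made with pyCRAC: CRAC reads were aligned with Novoalign (version 2.0.4 in the submitters' processing notes), reads mapping to several places were spread over them at random, and pyReadCounters wrote FPKM per annotated feature. The authors then scaled most CRAC tables to a common sum per library. The genome build fits R64, since 99.88% of coding features lay at the same place. 86 libraries of 88 samples were used, and 3 value columns matched no sample and were not used.

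Whole reads were recovered from the FPKM steps (at least 99.91% of values within 0.05 of a step) and used for shares and depth only. Changes were tested as log2(FPKM + 1) with limma 3.58.1 in R 4.3.3 (trend, Benjamini-Hochberg over all features tested, threshold 0.05), on features above 0 in every library of the fit, with the culture as a term in the time-course fits. A fold change on this scale understates the change of low features. Rapamycin was compared with ethanol over 1 mean per culture, 2 against 2. Early means 1 to 4 min. Late means 8 to 28 min for Nab3 and 8 to 20 min for Pol II in BY4741 cells. For rapamycin, late means the windows 8 to 10, 14 to 18 and 40 to 51 min. Intervals are exact 95% binomial ones. Python 3.11.15, pandas 2.3.3, scipy 1.17.1 and matplotlib 3.10.9 were used. On simulated data with 200 features changed by 2 on the log2 scale, the late Nab3 fit recovered 74.5% with 2 false calls. The early Nab3 fit recovered 72.5% with 18 false calls, the late Pol II fit 52% and the early rapamycin fit 88%. The simulated counts had the same dispersion for every feature and no difference between cultures apart from depth.

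The CUTs, the list of decay genes and the tests were chosen with earlier results of these data known. Named CUTs were the 5 with the largest rise and fall among the calls of each comparison, the 10 highest in Nab3 and Pol II at 0 min, CUT075 and CUT246, the genes beside these, and up to 10 pairs called in opposite directions. The alternatives were other pseudocounts, filters and scalings, the control time-course subtracted, the culture or replicate number as a block or not, and leaving out each culture. Those of the rapamycin shares were added after seeing the data.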

Additional observations from a re-analysis of the deposited data

Results flagged for a closer look

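For 8 named CUTs the late Nab3 change without glucose differed from that in the glucose control by limma's test of the difference. The difference was 3.696 for CUT_CNL282WTa3-B (SE 0.49, adjusted p = 0.00612), 3.266 for CUT_CDR259CTa3 (adjusted p = 0.046) and 2.817 for CUT_CHR199CTa3 (adjusted p = 0.0474). It was -5.023 for CUT798 (SE 0.997, adjusted p = 0.0158), -4.442 for CUT147 (adjusted p = 0.0108), -4.334 for CUT539 (adjusted p = 0.0294), -4.029 for CUT685 (adjusted p = 0.0128) and -3.938 for CUT659 (adjusted p = 0.026). The control was a single time-course.

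At 14 to 18 min the share of Pol II reads on the antisense CUTs was 1.75 times as high with rapamycin as with ethanol in the Nab3-FRB strain. In the strain without the tag it was 2.37% with and 2.54% without rapamycin, the opposite direction. This difference between the strains was not tested.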

How the results depend on the processing

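Counts of antisense CUTs called and, for Pol II, their medians depended on the setting. With the control time-course subtracted, calls numbered 0 for Nab3 early (39 as reported), 81 for Nab3 late (356), 0 for Pol II early (3) and 0 for Pol II late (12). In that setting no feature of any class was called for Nab3 early or Pol II early. For Pol II late 52 of all features rose and 172 fell. With equal library medians they were 25 for Nab3 early, 1 for Pol II early, 3 for Nab3 minus Pol II (0, with the median at -0.86 against 0.01), 24 for rapamycin early (38) and 1 for rapamycin late (29). With a mean of at least 10 FPKM they were 4 for Nab3 early, 0 for Pol II early, 41 for Pol II late and 1 for Nab3 minus Pol II. With no filter on low values they were 2, 21, 77, 4, 0 and 0 for Nab3 early, Pol II early, Pol II late, Nab3 minus Pol II, rapamycin early and rapamycin late. Both rapamycin fits of that setting called no feature of any class. Without the culture as a block, Nab3 early and Pol II early gave 0, and a pseudocount of 0.1 gave 1 for Pol II early. Late rapamycin calls numbered 16 with the 20 to 28 min libraries added. Leaving out 1 culture gave 6 to 60 calls for rapamycin early and 2 to 101 for rapamycin late. It gave medians of -0.468 to -0.127 for Pol II early and -0.161 to 0.332 for Nab3 minus Pol II, the sign of which turned without time-course 1. The late share ratio of rapamycin over ethanol (1.79) was 1.61 against protein-coding reads and 1.57 against reads on the overlapped genes. The causes were not tested.

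Rapamycin and ethanol cultures share only a number, with correlations of their deviations of 0.017 and 0.005. With the replicate number as a block, 36 CUTs were called early and 22 late. Depth limits Pol II most, where 47 of 1293 antisense CUTs had signal in every BY4741 library.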
